A study of Mus musculus with 6 samples.

Results

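The 9 genes described here encode the core of MHC class I antigen display and of the early complement cascade: B2m, H2-K1, H2-D1, Tapbp, C1qb, C1qc, C3, C4b and Serping1. They were chosen by symbol, with earlier results of these data known, and all 9 of the 9 were found among the 32067 features of the deposited table. RNA was measured in hippocampus of wild type C57BL/6J female mice aged 17 weeks, all of them ovariectomised, in 2 groups of 3 libraries that the labels call biological replicates. OVX mice were kept on control food, and OVX+RJ mice received food containing 1% royal jelly, a honeybee secretion, from 8 weeks of age. Values are given in the order of libraries 1, 2 and 3 of each group. Both groups therefore lack ovaries, and a sham-operated group is not analysed here.

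MHC class I molecules are heavy chains, such as those of H2-K1 and H2-D1, held by the small invariant chain beta-2 microglobulin, and they carry peptides from inside the cell to its surface. Tapasin, from Tapbp, holds empty class I molecules at the peptide transporter while peptide is loaded. Complement is a protease cascade: C1q binds a target, its partner proteases cleave C4 and C2, and the resulting convertase cleaves C3, whose fragments tag the target for phagocytes. In brain, C1q is made chiefly by microglia, C4 is expressed by astrocytes among others, and both class I molecules and complement are known for roles in the removal of synapses during development.

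The deposited totals ran from 34718596.5 to 58163785 counts per library, with OVX 2 the deepest. OVX+RJ 1 stood somewhat apart, its log2 CPM across genes correlating at a mean Pearson r of 0.983 with those of the others, which were at 0.986 to 0.987. All 8 markers of hippocampal subfields passed the filter on low counts, Prox1 and Wfs1 among them, as did all 6 neuronal, 10 astrocyte and 14 microglia markers. Tissue of this kind mixes cell types, so fewer cells of a type and less RNA per cell cannot be told apart in any value below.

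The promoters of the class I genes are shown because H2-K1 and H2-D1 are near copies, and B2m encodes their shared partner. Levels of H2-K1 and H2-D1 correlated at 0.876 over the libraries, and the part of promoter sequence in this was not tested. RefSeq promoters (GRCm38.p6, 250 bases before to 50 after the annotated start, 5′ to 3′) were matched for 7 of the 9 genes. Where a gene had several starts, the first listed was used. Capitals mark matches to 6 short motifs on either strand, chosen with the sequences in view. They are AANNGAAA, the core bound by interferon regulatory factors; GGGNNTTCC, bound by NF-kappaB factors; TGACG, found in sites of CREB-type factors; CCAAT, the NF-Y box; TATAA, the TATA core; and GAGGAA, bound by PU.1-type factors.
H2-K1 (chr17:34000298-34000597, minus strand): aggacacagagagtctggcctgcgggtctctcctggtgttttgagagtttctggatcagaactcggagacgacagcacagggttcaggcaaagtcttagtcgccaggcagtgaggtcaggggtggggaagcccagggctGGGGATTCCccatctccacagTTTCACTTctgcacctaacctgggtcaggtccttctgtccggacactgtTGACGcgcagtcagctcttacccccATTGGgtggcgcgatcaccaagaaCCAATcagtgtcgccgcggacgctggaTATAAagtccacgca
H2-D1 (chr17:35262844-35263143, plus strand): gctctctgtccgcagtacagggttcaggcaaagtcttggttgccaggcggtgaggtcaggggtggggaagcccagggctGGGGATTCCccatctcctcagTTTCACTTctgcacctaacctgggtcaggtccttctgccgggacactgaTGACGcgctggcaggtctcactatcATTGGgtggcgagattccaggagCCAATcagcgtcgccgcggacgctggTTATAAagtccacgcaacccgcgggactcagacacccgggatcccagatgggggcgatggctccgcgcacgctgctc
B2m (chr2:122147437-122147736, plus strand): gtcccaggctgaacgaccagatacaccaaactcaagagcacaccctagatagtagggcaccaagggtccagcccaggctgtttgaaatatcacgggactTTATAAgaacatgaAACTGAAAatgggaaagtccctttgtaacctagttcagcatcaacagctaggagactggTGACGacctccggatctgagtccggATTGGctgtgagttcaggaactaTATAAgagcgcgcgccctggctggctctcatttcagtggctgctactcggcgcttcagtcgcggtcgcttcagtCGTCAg
The windows of H2-K1 and H2-D1 aligned over 239 bases, 211 of them identical, and shared an unbroken run of 47 bases. No other pair of the 7 promoters shared a run longer than 12 bases. Both H2 promoters held GGGNNTTCC, which was in 1912 of all 32851 promoter windows of this length (5.82%) and in no other of the 7. AANNGAAA was in 5 of the 7 promoters (B2m, H2-K1, H2-D1, C1qc and C3), against 23.9% of all windows. TGACG was in 4, against 20.8%, CCAAT in 4, against 37.4%, and TATAA in 4, against 24.9%. The TATAA match lies after the annotated start in H2-K1, by 35 bases, and in C3, by 14. Those of B2m and H2-D1 lie before it. In B2m and H2-D1 a TTATA match overlaps a TATAA match. The annotated starts of the H2 pair are not equivalent: GGGNNTTCC lies 111 bases before the start in H2-K1 and 171 bases before it in H2-D1. A match is a run of letters, not a measured binding site.

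The next pair is shown because C1qb and C1qc are neighbours that encode chains of 1 protein. Their levels correlated at 0.382 over the libraries, and the part of promoter sequence in this was not tested.
C1qb (chr4:136886151-136886450, minus strand): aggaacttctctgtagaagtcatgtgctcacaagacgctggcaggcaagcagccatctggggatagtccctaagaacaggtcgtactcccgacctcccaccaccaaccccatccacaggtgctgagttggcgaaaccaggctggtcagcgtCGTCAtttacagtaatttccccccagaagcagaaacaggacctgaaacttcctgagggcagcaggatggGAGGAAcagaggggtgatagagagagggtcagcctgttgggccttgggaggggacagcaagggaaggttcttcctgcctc
C1qc (chr4:136892865-136893164, minus strand): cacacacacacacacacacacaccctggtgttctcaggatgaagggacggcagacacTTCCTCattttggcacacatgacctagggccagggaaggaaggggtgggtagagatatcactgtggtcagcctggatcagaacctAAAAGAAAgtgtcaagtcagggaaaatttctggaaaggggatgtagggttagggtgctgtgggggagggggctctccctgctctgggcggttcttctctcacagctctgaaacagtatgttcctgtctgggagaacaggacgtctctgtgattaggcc
Both held GAGGAA, present in 28.3% of all windows, and it was in no other of the 7 promoters. C1qb also held TGACG and C1qc held AANNGAAA. Their longest shared run was 10 bases.

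No diet difference passed the test at any of the 9 genes. All were tested, and with edgeR (quasi-likelihood test, p adjusted by Benjamini-Hochberg over 18629 genes) 0 of the 9 passed an adjusted p of 0.05, against 0% of all genes tested. DESeq2 and limma-voom on the same counts also called 0 of the 9, and 0 of them had an unadjusted p under 0.05 in edgeR, against 4.05% of all genes (2.14% higher and 1.91% lower in OVX+RJ). The CPM values (counts scaled to the library total over all rows of the table) of the 2 groups overlapped at all 9, against a background of 10.5% of tested genes whose groups did not overlap (4.53% higher and 5.95% lower). Log2 fold changes of OVX+RJ over OVX were above 0 at 6 genes and below 0 at 3, against 50.4% of all genes below 0. They ran from -0.069 to 0.24, with a median of 0.0096 against -0.0015 over all genes tested.

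**Figure D1:**
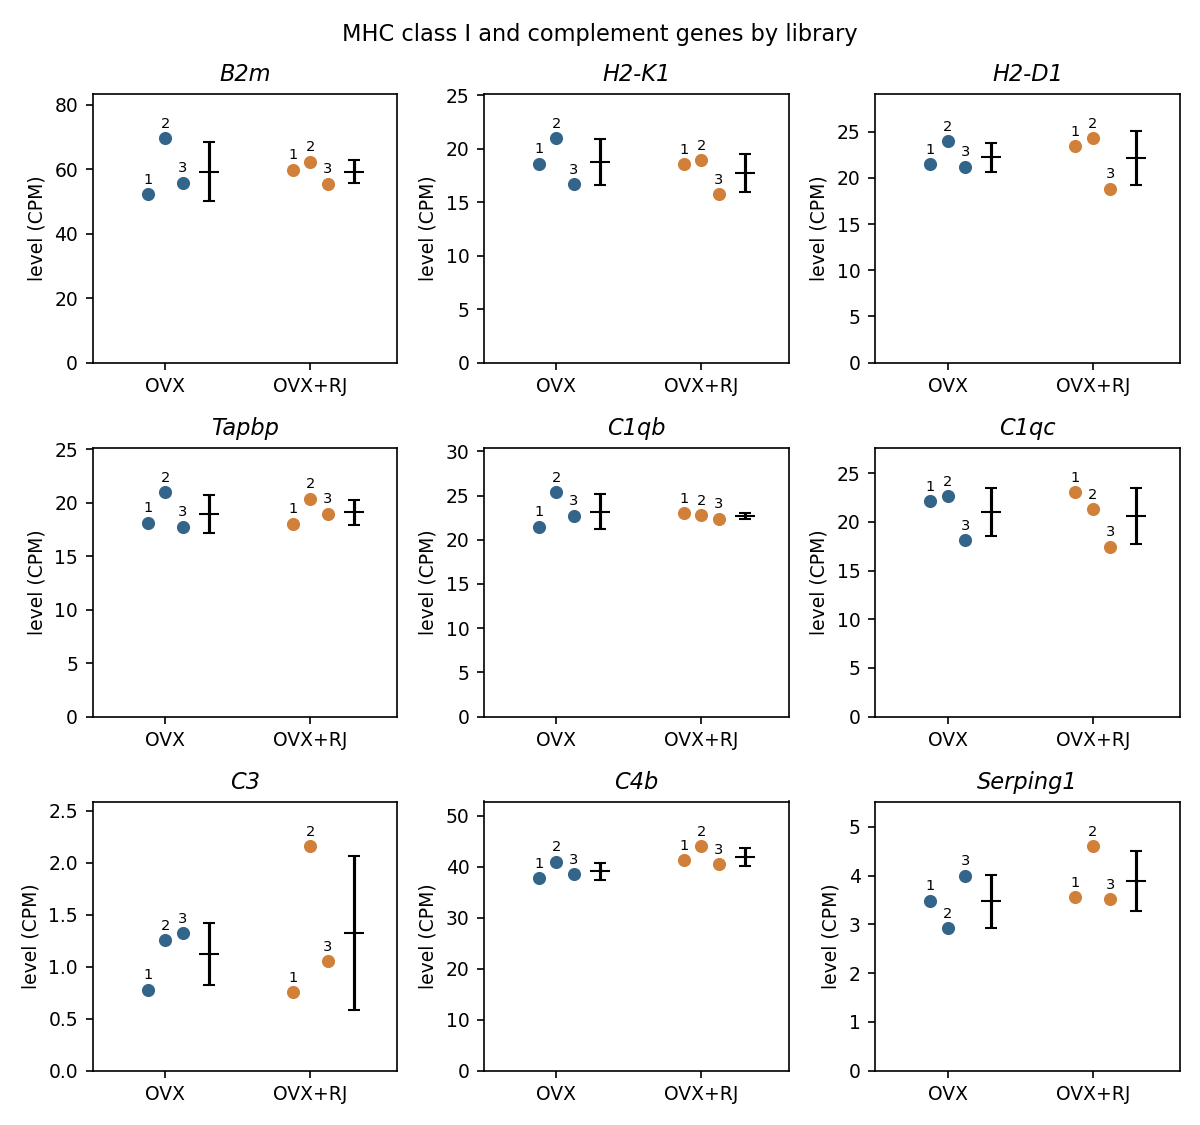
Level of each gene in CPM (vertical axes, starting at 0) in the 3 OVX and 3 OVX+RJ libraries (points, numbered by library), with group means and SDs as bars beside them. The points of the groups overlap in all 9 panels, and C3 has the widest spread, from 0.753 to 2.16 CPM.

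B2m, the invariant chain of every class I molecule, was at 52.3, 69.5 and 55.8 CPM under control food and at 59.9, 62.3 and 55.5 CPM under royal jelly. The highest and the lowest value both lay in OVX, so the OVX+RJ libraries fell inside the range of the controls. Its means were 59.2 ± 9.11 CPM under control food and 59.2 ± 3.49 CPM under royal jelly (SD, n = 3 each). The log2 fold change was 0.0096 (SE 0.10), with an edgeR adjusted p of 0.993. The 95% interval of limma ran from -0.21 to 0.25, or 0.866-fold to 1.19-fold.

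H2-K1, 1 of the classical heavy chains of this strain, stood at 18.6, 20.96 and 16.7 CPM under control food and 18.5, 18.9 and 15.7 CPM under royal jelly. Library 3 of each group was the lowest, and the ranges overlapped. Its log2 fold change was -0.069 (SE 0.12, edgeR adjusted p 0.986), with a 95% interval from -0.33 to 0.19.

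H2-D1, the other classical heavy chain, stood at 21.5, 23.98 and 21.2 CPM under control food and 23.4, 24.3 and 18.8 CPM under royal jelly. OVX+RJ held both the highest and the lowest library. OVX+RJ over OVX, the log2 fold change was 0.0088 (SE 0.12, edgeR adjusted p 0.995), with a 95% interval from -0.25 to 0.26. The ratio of H2-D1 to H2-K1 CPM ran from 1.14 to 1.27 in OVX and from 1.20 to 1.28 in OVX+RJ.

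These 2 genes share sequence with each other and with further class I genes. Of the words of 50 bases in the longest coding transcript (GENCODE M21), 8.79% were found in transcripts of other genes for H2-K1 and 14.3% for H2-D1, and how the counting placed such reads is not given in the sources used here. With the counts of H2-K1, H2-D1, H2-Q4, H2-Q6 and H2-Q7 summed into a single row, an alternative added after seeing the data, the log2 fold change was -0.014 with an edgeR adjusted p of 0.992.

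Tapbp was at 18.1, 20.98 and 17.8 CPM under control food and at 18.03, 20.4 and 18.98 CPM under royal jelly. Library 2 was the highest in each group. This gave a log2 fold change of 0.021 (SE 0.10, edgeR adjusted p 0.990), with a 95% interval from -0.20 to 0.25.

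C1qb, the B chain of C1q, was at 21.5, 25.4 and 22.7 CPM under control food and at 22.99, 22.8 and 22.4 CPM under royal jelly. The OVX+RJ libraries lay within 1 CPM of each other, inside the OVX range. The log2 fold change was -0.019 (SE 0.095, edgeR adjusted p 0.990), with a 95% interval from -0.22 to 0.19.

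C1qc, the C chain, was at 22.1, 22.6 and 18.1 CPM under control food and at 23.02, 21.3 and 17.4 CPM under royal jelly. Library 3 of each group was below the other 2, a pattern that C1qb lacked. Its log2 fold change was -0.014 (SE 0.13, edgeR adjusted p 0.993), with a 95% interval from -0.30 to 0.27. The ratio of C1qb to C1qc CPM was 0.970, 1.12 and 1.25 under control food and 0.999, 1.07 and 1.28 under royal jelly, so the spread within each group was far wider than the difference between groups. Each ratio rests on at least 629 counts per gene. Neither transcript shared a word of 50 bases with another gene.

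C1qa, the third chain and the neighbour of both, was at 24.1, 26.6 and 25.7 CPM under control food and at 23.05, 22.3 and 23.3 CPM under royal jelly. The groups did not overlap, with OVX+RJ lower. OVX+RJ over OVX, the log2 fold change was -0.14 (SE 0.087) and did not pass, with an edgeR adjusted p of 0.986. Over the left-out libraries it ran from -0.19 to -0.11. The 3 chains summed to between 66.5 and 74.6 CPM under control food and between 63.1 and 69.1 CPM under royal jelly.

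Microglia markers, which mark the main source of C1q, summed to between 406 and 429 CPM under control food and between 395 and 428 CPM under royal jelly. None of the 14 was at 0. The 3 C1q chains took 0.167, 0.174 and 0.156 times the summed marker level in OVX 1, 2 and 3 and 0.175, 0.155 and 0.154 times in OVX+RJ 1, 2 and 3, ranges that overlap. The part of microglial number in the C1q values was not tested.

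C4b, which encodes complement C4, was at 37.8, 40.9 and 38.5 CPM under control food and at 41.3, 43.97 and 40.5 CPM under royal jelly. A single OVX library, OVX 2, exceeded the lowest OVX+RJ library. Means were 39.1 ± 1.66 CPM under control food and 41.9 ± 1.82 CPM under royal jelly (SD, n = 3 each). This gave a log2 fold change of 0.11 (SE 0.076), with an edgeR adjusted p of 0.986 and a 95% interval from -0.055 to 0.28, so that a rise above 1.21-fold lies outside it.

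C4a, a near copy of C4b, was at 2.45, 2.46 and 2.38 CPM under control food and at 2.05, 2.69 and 1.86 CPM under royal jelly. Of the 50-base words of the C4b transcript 35.2% were also found in C4a, so the split between them is uncertain. With both summed, the log2 fold change was 0.098 with an edgeR adjusted p of 0.986.

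C3, on whose cleavage all complement routes converge, was scarce, at 27, 73 and 54 counts under control food and 29, 85 and 38 counts under royal jelly. In CPM this was 0.778, 1.26 and 1.33 under control food and 0.753, 2.16 and 1.053 under royal jelly. OVX+RJ 2 was the highest library, and OVX+RJ 1 the lowest. The log2 fold change was 0.24 (SE 0.39, edgeR adjusted p 0.986), with a 95% interval from -0.71 to 0.99, so changes of up to 1.99-fold lie within it. Without OVX+RJ 2 it was -0.30. In the same library the summed markers of border macrophages stood at 7.87 CPM, against 4.03 to 6.19 CPM in the other 5. Of these markers Mrc1, Pf4 and Ms4a7 were highest there, whereas Cd163 was highest in OVX 1 and Lyve1, Cbr2 and F13a1 in OVX 3. Interferon-stimulated genes summed to 159 CPM in OVX+RJ 2, against 125 to 146 CPM elsewhere. The part of these cells in the C3 value was not tested.

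Serping1, which encodes the C1 inhibitor, was at 3.49, 2.92 and 4.00 CPM under control food and at 3.56, 4.60 and 3.52 CPM under royal jelly. OVX 2 was the lowest and OVX+RJ 2 the highest library, and the groups overlapped. Its log2 fold change was 0.18 (SE 0.20, edgeR adjusted p 0.986), with a 95% interval from -0.26 to 0.61. Without OVX+RJ 2 and OVX 2 in turn it was 0.051 and 0.068.

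**Figure D2:**
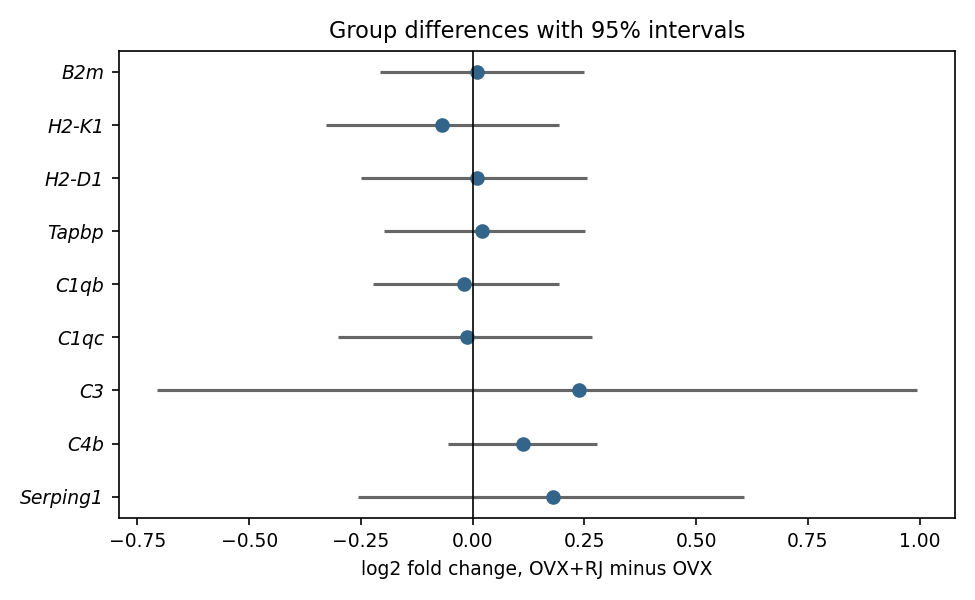
Log2 fold change of OVX+RJ over OVX for each gene (points, edgeR) with the 95% interval of limma (lines, not adjusted for the number of genes), 3 libraries per group. All 9 intervals hold 0, and that of C3 is the widest, from -0.71 to 0.99.

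Levels of different genes were compared per kilobase of exon (GENCODE M21 lengths, CPM per kb, mean ± SD over the 6 libraries). B2m was the highest at 68.9 ± 7.18, followed by C1qb at 21.1 ± 1.20 and C1qc at 10.8 ± 1.24. H2-D1 was at 8.61 ± 0.81, C4b at 7.11 ± 0.39, H2-K1 at 6.20 ± 0.63 and Tapbp at 5.25 ± 0.37. Serping1, at 1.58 ± 0.24, and C3, at 0.237 ± 0.10, were the lowest. From C1qc down to Tapbp the library ranges of each pair of neighbours in this order overlapped, whereas those of B2m, C1qb, Serping1 and C3 overlapped with no other gene of the 9. The order depends on the length: with the longest coding transcript in place of all exons, tried after seeing the data, H2-K1 was at 11.3 ± 1.14, H2-D1 at 10.6 ± 0.993 and C4b at 7.53 ± 0.409, and C1qc at 17.3 ± 1.99, with a range still below that of C1qb.

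**Figure D3:**
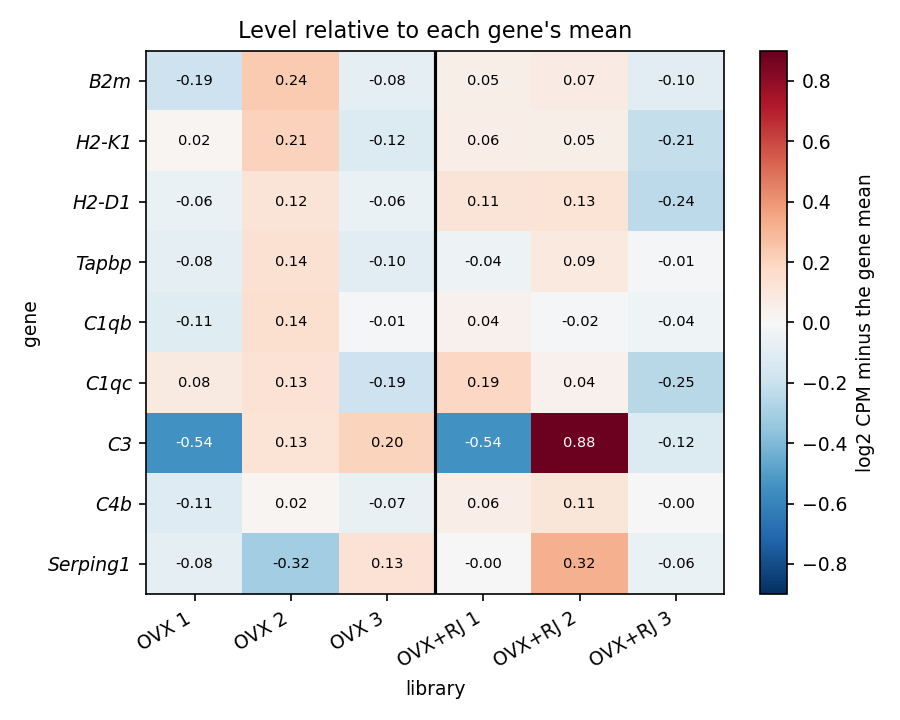
Log2 CPM of each gene minus its mean over the 6 libraries (colour and printed value), with genes as rows and libraries as columns and the line parting OVX from OVX+RJ. B2m, H2-K1, Tapbp and C1qb are highest in OVX 2, H2-D1, C3, C4b and Serping1 in OVX+RJ 2, and C1qc in OVX+RJ 1.

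Profiles over the 6 libraries were compared in pairs of genes. Pearson correlations of log2 CPM are given as descriptions over 6 libraries that differed in depth and in levels of cell type markers. The sum of the 8 myelin markers, for instance, ran from 3148 CPM in OVX 1 to 5218 CPM in OVX 2. Correlations were 0.876 for H2-K1 with H2-D1, 0.842 for B2m with Tapbp, 0.732 for B2m with H2-K1 and 0.735 for B2m with H2-D1. Tapbp was at 0.605 with H2-K1 and at 0.508 with H2-D1. B2m and C1qb reached 0.938, and H2-K1 and C1qc 0.897, while C1qb and C1qc were at 0.382. C3 was at 0.559 with Serping1 and at 0.072 with H2-K1. OVX 2, the highest library at B2m, H2-K1, Tapbp and C1qb, was also the deepest.

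The genes with the profile most like a member were taken as the highest correlations among 13302 tested genes with a mean of at least 1 CPM. Predicted genes (Gm-number and Rik symbols), pseudogenes and features without a gene type had been left out of these. For B2m they included Dctn3, at 0.982, and U2af1l4, at 0.976. For H2-K1 they were Ccdc107, Maged2 and Mrpl55, at 0.978 to 0.975, and for H2-D1 Cstf1, Cd99l2 and Dpm2, at 0.995 to 0.987. For C4b the first was Zfp85, at 0.998, for C3 Pinx1, at 0.994, and for C1qc Ugt1a7c, at 0.995. No other member and no microglia marker was among the 3 most alike of any of the 9. For each member between 42 and 99 of the 13302 genes exceeded 0.9, or 0.316% to 0.744%. With 6 points, a value above 0.9 is therefore not particular to the genes named.

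No gene of the wider class I pathway passed the test. Of 34 listed genes 30 were tested, and 0 passed edgeR's adjusted threshold, with 14 log2 fold changes above 0 and 16 below and a median of -0.016. DESeq2 and limma-voom also called 0. The groups did not overlap at 2 of the 30 (6.67%), both lower in OVX+RJ, against 10.5% of all genes, and 1 had an unadjusted p under 0.05, against 4.05% of all genes. That gene was Fcgrt, the neonatal Fc receptor, a class I-like chain that pairs with beta-2 microglobulin. It stood at 12.7, 12.0 and 11.7 CPM under control food and at 8.50, 10.9 and 8.62 CPM under royal jelly, a log2 fold change of -0.37 (SE 0.13, edgeR adjusted p 0.986). The other was H2-T23, which encodes the nonclassical Qa-1, at 5.16, 5.33 and 5.08 CPM in OVX against 4.34, 4.67 and 4.21 CPM under royal jelly.

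Of other class I genes known to be induced by interferon, Tap1, a subunit of the peptide transporter, stood at 3.43 ± 0.618 CPM under control food and 3.53 ± 0.383 CPM under royal jelly. The immunoproteasome subunits Psmb8 and Psmb9 were 2.36 ± 0.409 and 1.14 ± 0.350 CPM in OVX, and 2.16 ± 0.954 and 0.983 ± 0.300 CPM under royal jelly. Nlrc5, the transactivator of class I genes, was 0.598 ± 0.140 against 0.621 ± 0.374 CPM. H2-M3, which presents formylated peptides, was 1.50 ± 0.322 CPM under control food and 1.44 ± 0.834 CPM under royal jelly. In each of these 5 genes the groups overlapped. Psmb9 had 23 to 90 counts per library and Nlrc5 7 to 44, fewer than the 114 to 202 of Tap1.

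Endothelial cells also carry class I molecules and Fcgrt. Their 10 markers, none at 0, summed to between 213.6 and 216 CPM under control food and between 181 and 213.1 CPM under royal jelly. The sum was lowest in OVX+RJ 1 and 3, as at Fcgrt. Cldn5, Flt1, Ly6a, Tek and Itm2a were also lowest in both, whereas Pecam1, Cdh5, Ly6c1, Slco1a4 and Esam did not have both of these libraries lowest. Of the 10 markers 7 had a log2 fold change below 0, against 50.4% of all genes. At 3 of them (30%), Pecam1, Ly6c1 and Itm2a, all OVX+RJ libraries were below all OVX libraries, against 5.95% of all genes. Ly6c1 and Ly6a, both lower, had an unadjusted edgeR p under 0.05, against 4.05% of all genes, and 0 passed the adjusted threshold. The part of endothelial content in the Fcgrt and H2-T23 values was not tested.

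Among 58 listed complement genes 52 had a row and 43 were tested. Of these 18 had a log2 fold change above 0 and 25 below, with a median of -0.014, and 0 passed edgeR's adjusted threshold, DESeq2 or limma-voom. DESeq2 gave no adjusted p to 2171 of the 18629 genes, Cr2 among them, so it made no call there. The groups did not overlap at 5 of the 43 (11.6%), 2 higher and 3 lower in OVX+RJ, against 10.5% of all genes. An unadjusted p under 0.05 was found at 3, against 4.05% of all genes: Cr2 and Cd46, with higher means in OVX+RJ, and Vtn, with a lower one. The 5 without overlap were C2, Cr2, C1qa, Vtn and C5ar1.

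Of the proteases, C1s1, a catalytic partner of C1q, was 0.737 ± 0.0355 CPM under control food and 0.798 ± 0.0829 CPM under royal jelly. C2, which joins C4b in the convertase, was at 17, 38 and 30 counts under control food and at 30, 52 and 37 counts in OVX+RJ. This gave 0.490, 0.653 and 0.736 against 0.779, 1.32 and 1.03 CPM, without overlap, and a log2 fold change of 0.73 (SE 0.33, edgeR adjusted p 0.986).

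No receptor gene passed the test. Itgam, a subunit of complement receptor 3 on microglia, was 26.2 ± 2.16 CPM under control food and 27.1 ± 0.786 CPM under royal jelly. C3ar1, the receptor of the C3a fragment, was 1.61 ± 0.285 against 1.97 ± 0.653 CPM. C5ar1, the receptor of C5a, was at 0.605, 0.688 and 0.417 CPM under control food and at 0.312, 0.330 and 0.360 CPM under royal jelly, without overlap (edgeR adjusted p 0.986). Cr2, complement receptor 2, had 16, 15 and 9 counts under control food and 22, 20 and 31 under royal jelly, and its log2 fold change was 1.07 (SE 0.42, edgeR adjusted p 0.986). The summed lymphocyte and granulocyte markers, 7 of 12 with a row, ran from 0.202 to 0.963 CPM under control food and from 0.381 to 0.935 CPM under royal jelly. Among them the B cell marker Cd79a had 0, 0 and 0 counts under control food and 6, 3 and 3 under royal jelly. Ms4a1, another B cell marker, had 0, 3 and 0 against 2, 0 and 0. Neither marker passed the filter on low counts, so neither was tested. The part of B cells in the Cr2 value was not tested.

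Inhibitors guard host cells against complement. Cr1l, the rodent membrane inhibitor Crry, was 22.3 ± 1.30 CPM under control food and 22.8 ± 1.70 CPM under royal jelly. Cd55, which speeds the decay of convertases, was 6.73 ± 1.38 against 6.76 ± 0.287 CPM, and Cd59a, which blocks the terminal complex, was 3.44 ± 0.305 against 2.91 ± 0.711 CPM. The groups overlapped at all 3.

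The secreted inhibitor Clu was 717 ± 48.4 CPM under control food and 662 ± 30.3 CPM under royal jelly. Among inhibitors carried by neurons, Csmd1 was 76.5 ± 5.99 against 78.2 ± 3.94 CPM and Susd4 was 126 ± 5.82 against 124 ± 8.00 CPM. None of the 3 passed. Cd46, a cofactor for C3b cleavage, was at 8.64, 7.91 and 9.28 CPM under control food and at 8.52, 12.8 and 11.6 CPM under royal jelly, with OVX+RJ 1 inside the OVX range. Its log2 fold change was 0.36 (SE 0.15, edgeR adjusted p 0.986). The sum of the 10 choroid plexus markers was also highest in OVX+RJ 2 and 3, at 28.03 to 39.5 CPM under control food and 28.9, 49.5 and 57.4 CPM under royal jelly. Ttr, Clic6 and Otx2 had that order, with Otx2 at 0 in OVX 1, whereas Kl, Folr1, Kcnj13, Aqp1, Sostdc1, Tmem72 and F5 did not have both of these libraries on top. Of the 8 markers tested, 6 had a log2 fold change above 0 and 2 below, and 0 passed the adjusted threshold. Ttr, Clic6 and F5, all higher, had an unadjusted edgeR p under 0.05, against 4.05% of all genes. Only at F5, 1 of the 8 (12.5%), did the groups not overlap, against 10.5% of all genes. The part of choroid plexus in the Cd46 value was not tested.

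Vtn, whose product binds the terminal complex, is in brain also a marker of pericytes. It stood at 40.8, 44.4 and 39.1 CPM under control food and at 35.4, 35.6 and 34.7 CPM under royal jelly, without overlap. OVX+RJ over OVX, the log2 fold change was -0.22 (SE 0.079, edgeR adjusted p 0.986). The 8 mural markers, Vtn among them and none at 0, summed to between 182 and 192 CPM under control food and between 162 and 173 CPM under royal jelly. Since Vtn is part of this sum, the sum and Vtn are not independent. Of the 8 markers 7 had a log2 fold change below 0, against 50.4% of all genes, and 1 above, Pdgfrb at 0.18. The part of mural cells in the Vtn value was not tested.

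**Figure D4:**
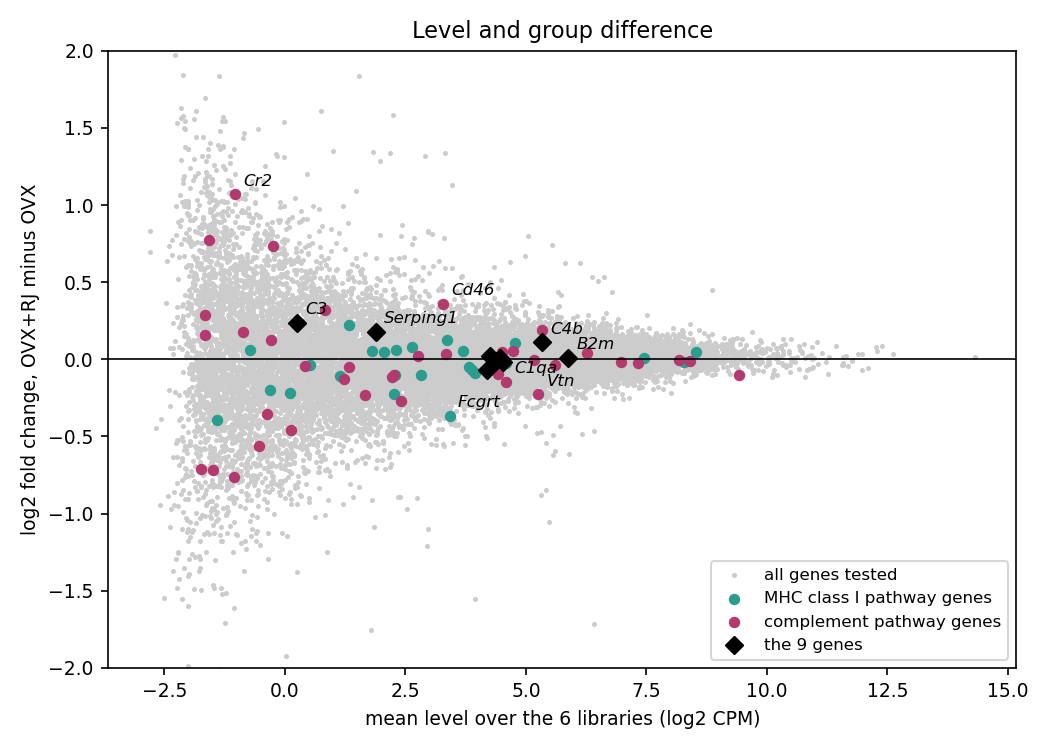
Mean log2 CPM over the 6 libraries (horizontal) and log2 fold change of OVX+RJ over OVX (vertical) for all 18629 genes tested (grey), of which 13 lie beyond the drawn range of -2 to 2. The 9 genes (black) lie between -0.069 and 0.24, within the grey cloud.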

How the data were processed

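Hippocampal poly(A) RNA was sequenced from directional libraries, per the labels' protocols. The authors deposited expected counts by gene symbol, which are not scaled to library size. The submitters' processing notes name GRCm39 as the build and, without their roles, HISAT2 2.2.1, StringTie 2.2.1, bcl2fastq 2.19 and fastp 0.23.4. The annotation release, the strand setting and how multi-mapped reads were handled were not given in the sources used here.

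Fractional counts, present at 51 features, were rounded to integers, midway values up. Levels are CPM over all rows of the table. Genes kept by filterByExpr (18629) were compared in R 4.3.3 with edgeR 4.0.16 (TMM, glmQLFit, glmQLFTest, two-sided, Benjamini-Hochberg over all genes tested, threshold 0.05), with no covariate. Standard errors and 95% intervals are those of limma 3.58.1 on log2 CPM (prior count 2), so they are not centred exactly on the edgeR value. The common biological coefficient of variation was 0.134. The test was checked on simulated counts. The smallest two-sided p of an exact permutation test at this size is 0.1, so none is given. P-values set the difference between the groups against the spread between these libraries within the groups.

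Alternatives were DESeq2 1.42.0, limma-voom, other scalings and filters, a robust edgeR fit, a replicate block, and each library left out. Promoters, matched by symbol, are RefSeq's on GRCm38.p6, and transcripts are GENCODE M21 on GRCm38. This is another build than the submitters', so no other coordinates are given. Members, lists and the naming rule were chosen with earlier results of these data known. The rule names the 9 members, 19 other genes of the class I and complement lists whatever their values, list genes with an unadjusted p under 0.05, and the 3 genes most like each member. Some genes under this rule are not reported here. Named outside it, after their values were seen, were C4a, the near copy of C4b, C5ar1, the near copies H2-Q4, H2-Q6 and H2-Q7, and H2-Aa, H2-Ab1, H2-Eb1, H2-DMa, H2-DMb1, Cd74, Ciita, Ifit3, Cd79a, Ms4a1, Ttr, Clic6, Kl, Folr1, Kcnj13, Aqp1, Sostdc1, Tmem72, F5, Otx2, Usp18, Serpina3n, Prox1 and Wfs1 of the marker lists. Also named in this way were the 10 endothelial and 7 border macrophage markers, Cd44, Vim and Pdgfrb.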

Additional observations from a re-analysis of the deposited data

How the results depend on the processing

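No alternative called any of the 9 genes or any gene of the class I and complement lists. Over all genes tested, DESeq2 called 13 (10 higher and 3 lower in OVX+RJ), edgeR with robust empirical Bayes 3 and the replicate block 1, against 0 in the edgeR test, and with each library left out in turn between 0 and 8 were called, the most without OVX+RJ 2. The replicate number is only a number: the deviations of same-numbered libraries correlated at 0.046, -0.0024 and 0.0031. Differences this near 0 changed sign easily. With total counts in place of TMM the log2 fold changes of B2m and H2-D1 were -0.0014 and -0.0030, with every gene of at least 1 count tested -0.00075 and -0.0011. H2-D1 was at -0.0056 in limma-voom, and Nlrc5 was at -0.19 in limma-voom and -0.070 with the replicate block. The cause was not tested. The value of -0.014 for H2-K1, H2-D1 and their near copies summed is that of another quantity than H2-D1 alone, since H2-K1 is part of it. With each library left out in turn, log2 fold changes ran from -0.076 to 0.14 for B2m, from -0.14 to 0.023 for H2-K1, from -0.053 to 0.12 for H2-D1, from -0.019 to 0.10 for Tapbp, from -0.075 to 0.054 for C1qb, from -0.11 to 0.10 for C1qc, from -0.30 to 0.51 for C3, and among other genes from -0.60 to 0.25 for H2-M3, from -0.066 to 0.18 for Tap1, from -0.47 to 0.17 for Psmb8, from -0.36 to 0.078 for Psmb9, from -0.27 to 0.48 for Nlrc5, from -0.12 to 0.19 for Cd55, from -0.0074 to 0.10 for Cr1l, from -0.0065 to 0.10 for Csmd1, from -0.081 to 0.029 for Susd4. C4b stayed between 0.083 and 0.15 and Serping1 between 0.051 and 0.30 over all alternatives. At 27 to 85 counts per library, C3 is the member that depth limits most.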

Other observations

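MHC class II genes, which macrophages and related cells use to show peptides from outside the cell, were not highest in the same library. H2-Aa, a class II alpha chain, had 51, 24 and 2 counts in OVX 1, 2 and 3 and 23, 12 and 12 counts in OVX+RJ 1, 2 and 3. H2-Ab1, its beta chain partner, had 46, 15 and 10 counts under control food and 8, 16 and 10 under royal jelly. Cd74, the invariant chain of class II, had 71, 68 and 27 counts under control food and 26, 33 and 22 under royal jelly. In CPM these 3 of the 7 class II genes were highest in OVX 1, the shallowest library, where B2m had its lowest value, 52.3 CPM. H2-DMa, the most abundant of the 7, was lowest there, at 7.81 CPM against 8.73 to 11.1 CPM elsewhere, H2-DMb1 and Ciita were highest in OVX 3, and H2-Eb1 in OVX+RJ 2. Ciita, the class II transactivator, was at 1.12, 1.08 and 1.33 CPM under control food and at 0.338, 0.940 and 0.970 CPM under royal jelly. Of the 7 class II genes 5 had a log2 fold change below 0, against 50.4% of all genes, with a median of -0.58 against -0.0015. Only at Ciita, 1 of the 7 (14.3%), did the groups not overlap, with OVX+RJ lower, against 10.5% of all genes. Among the 7, 0 passed edgeR's adjusted threshold or an unadjusted p under 0.05.

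Interferon-stimulated genes, which share regulators with class I, had 12 of 20 log2 fold changes above 0 and a median of 0.054, where edgeR called 0 and gave an unadjusted p under 0.05 to 2, Ifit3 and Usp18, both with higher means in OVX+RJ, against 4.05% of all genes. The groups did not overlap at 1 of the 20, against 10.5% of all genes. This was Ifit3, at 5.10, 5.38 and 4.96 CPM under control food and at 6.81, 7.95 and 7.15 CPM under royal jelly, with an edgeR adjusted p of 0.986. Astrocyte reactivity genes had 6 of 9 log2 fold changes below 0, against 50.4% of all genes, and edgeR called 0. The groups did not overlap at 2 of the 9 (22.2%), against 10.5% of all genes. These were Cd44, higher in OVX+RJ, and Vim, lower. Serpina3n, a defining member, was at 44.1, 54.9 and 47.7 CPM under control food and at 45.2, 46.7 and 41.1 CPM under royal jelly, ranges that overlap.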
